A study of Mus musculus with 8 samples.

Results

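The TCF/LEF transcription factors and the TLE corepressors, 9 of the 28792 gene symbols in the tables, were followed across 4 RNA sequencing libraries of sorted hair follicle stem cells from mouse back skin. They were chosen by name: the 4 TCF/LEF genes Tcf7, Tcf7l1, Tcf7l2 and Lef1, and 5 genes of the TLE family, Tle1, Tle2, Tle3, Tle4 and Aes. All 9 were found, each as 1 row of each table. The series also holds 4 chromatin samples of resting bulge cells of CD-1 females at postnatal day 52 to 60, which used antibodies to TCF3, TCF4 and TLE or were input; they are not analysed here.

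The libraries form 2 pairs with 1 library per group. In the first pair, C57BL6/129Sv females at day 99 carried K15CrePGR, a Cre recombinase fused to a progesterone receptor domain and driven by the bulge-active keratin 15 promoter, and a Rosa-YFP reporter behind a floxed stop (Rosa-YFPfl/stop/fl). The Het group was Ctnnb1+/fl and the cKO group Ctnnb1fl/fl, so the Het cells also carried a floxed allele of Ctnnb1, the gene of β-catenin. In the second pair, C57BL6 males at day 24 were Axin2LacZ/+, with a reporter in 1 Axin2 allele in both groups, and bulge cells were sorted by reporter activity into LacZ(+) and LacZ(-) as skin passed from rest (telogen) to growth (anagen). The stage of the first pair is telogen in one label and the onset of anagen in another. The sources used here do not say whether a library came from 1 mouse or several, or when Cre was induced. With 1 library per group there is no replicate check of any difference and no test was possible.

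TCF/LEF proteins bind the DNA motif CTTTGA or CTTTGT through an HMG box. Without β-catenin they recruit TLE proteins (Groucho in the fly), which hold target genes down together with histone deacetylases. When Wnt signalling stabilizes β-catenin, it binds the same factors and target genes are switched on. In the bulge, Tcf7l1 and Tcf7l2 are known as the factors of the resting stem cell, and Lef1 and Tcf7 as factors that come up in the hair germ and matrix, where Wnt signalling is active. Aes, also called Tle5 or Grg5, lacks the WD40 repeats of the longer TLE proteins. The names can mislead: the proteins that the Wnt field calls TCF3 and TCF4 are the products of Tcf7l1 and Tcf7l2. The symbols Tcf3 and Tcf4 in the tables belong to the E-protein genes E2A and E2-2, which stood at 33.3 to 48.3 and 10.9 to 15.2 FPKM and are not members.

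The promoters of 8 members, 14 windows of 250 bases before an annotated start in RefSeq on GRCm38.p6, were searched on both strands for CTTTGA and CTTTGT, which share their first 5 letters, so no position matches both on a strand. They are shown because Lef1 and Tcf7 are themselves known Wnt targets and because the level of Axin2, another Wnt target, differed within each pair. One or both motifs lay in 3 of the 14 windows, against 27.6% of 32851 windows of all genes. Aes was not matched. The Lef1 window is that of an internal start within the gene and held 3 matches, while the other 3 Lef1 windows and both Tcf7 windows held none. The sequences run 5′ to 3′ on the gene's strand and capitals mark the matches, TCAAAG and ACAAAG being CTTTGA and CTTTGT on the opposite strand. The Lef1 stretch is chr3:131156044-131156293 (+), the Tcf7l1 stretch chr6:72789056-72789085 (-) and the Tcf7l2 stretch, also before an internal start, chr19:55895291-55895320 (+).
Lef1: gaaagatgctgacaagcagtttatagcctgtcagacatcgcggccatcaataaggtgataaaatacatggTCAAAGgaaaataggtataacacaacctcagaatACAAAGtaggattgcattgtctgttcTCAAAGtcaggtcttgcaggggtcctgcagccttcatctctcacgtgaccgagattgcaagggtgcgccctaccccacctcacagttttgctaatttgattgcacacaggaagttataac
Tcf7l1: gccctgtcaaaaCTTTGTcgccgcagcggc
Tcf7l2: caaacaaaatatcaggCTTTGTtcttttga
A match describes the letters and not a bound site. The count of 3 in 14 windows is near the share in all promoters.

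Values are FPKM, fragment counts scaled to transcript length and to the size of the library, so levels of different genes can be set side by side within a library. No counts are given and the depth behind a value is unknown in absolute terms. Among rows under 0.1 FPKM in both libraries, where single fragments should make the values, the commonest FPKM ratio was 1.04 for cKO over Het (262 of 1918 rows within a window of 0.04 on the log2 scale) and 0.933 for LacZ(+) over LacZ(-) (66 of 1671 rows). Ratios beyond 2-fold were not searched. Within that range, the libraries of the first pair differed little in the value of the smallest step. For the LacZ pair this is less sure, since few rows held its commonest ratio. Ctnnb1 itself stood at 370 FPKM under the cKO label and 251 under the Het label. A value for the whole gene does not resolve a deleted part, so the first pair is called by its labels. Axin2, a Wnt target, stood at 2.12 and 16.3 FPKM in that pair and at 19.0 and 9.10 in the LacZ pair. The genomic interval given for Ctnnb1 is shared by 4 genes and that for Axin2 by 2, so reads of neighbours can enter both values. Of 8 bulge markers all were at 1 FPKM or more in each pair, though Krt15 is listed at exactly 0 in LacZ(-) cells, which can be a failed estimate.

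The 2 factors of the resting bulge made up most of the TCF/LEF transcript level in every library. Tcf7l1 (ENSMUSG00000055799, mm9 chromosome 6, 72576371 to 72739248) stood at 14.6 FPKM in the library labelled cKO, 10.9 in that labelled Het, 11.2 in LacZ(+) and 13.7 in LacZ(-) cells. Tcf7l2 (ENSMUSG00000024985, mm9 chromosome 19, 55816299 to 56008144) stood at 16.2, 13.0, 13.4 and 23.0 FPKM in the same order. Tcf7l2 was above Tcf7l1 in all 4 libraries, by 1.11, 1.19, 1.19 and 1.68 times. Together they held 93.3%, 80.5%, 83.5% and 85.9% of the summed TCF/LEF FPKM. Both lay between percentile 63.3 and 76.6 of genes above 0, in the upper part of the transcriptome but far from its top.

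Tcf7 and Lef1, the factors linked to the activated follicle, were the lowest of the 9 genes in each library. As deposited, Tcf7 lay between percentile 39.1 and 50.2 of genes above 0, and Lef1 between 15.5 and 33.1. Tcf7 (ENSMUSG00000000782, mm9 chromosome 11, 51763383 to 52099681) stood at 2.13 FPKM under the cKO label, 4.85 under the Het label, 4.73 in LacZ(+) and 5.90 in LacZ(-) cells. As deposited, the cKO-labelled library was the low one, and the other 3 lay close together. The interval given for Tcf7 is shared by 17 genes, so reads of neighbours can enter its value. Cdkl3, a kinase gene in that interval, holds the same 2 values crossed, 4.85 FPKM under the cKO label and 2.13 under the Het label. The cause was not tested. With both values exchanged, the Het-labelled library would be the low one. The difference of Tcf7 in the first pair, its share and its ratio to Tcf7l1 are therefore also given with the exchanged values. Sums, and shares of the other TCF/LEF genes, use the deposited values only. Tcf7l1 shares its interval with 2 clone-named genes and Tle1 and Tle2 with 1 each. Lef1 (ENSMUSG00000027985, mm9 chromosome 3, 130813388 to 130927274, alone in its interval) stood at 0.0910, 0.932, 0.130 and 0.106 FPKM. It was under 1 FPKM in all 4 libraries, also in the LacZ(+) cells sorted for Axin2 reporter activity, and only the Het-labelled library came near 1.

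**Figure D1:**
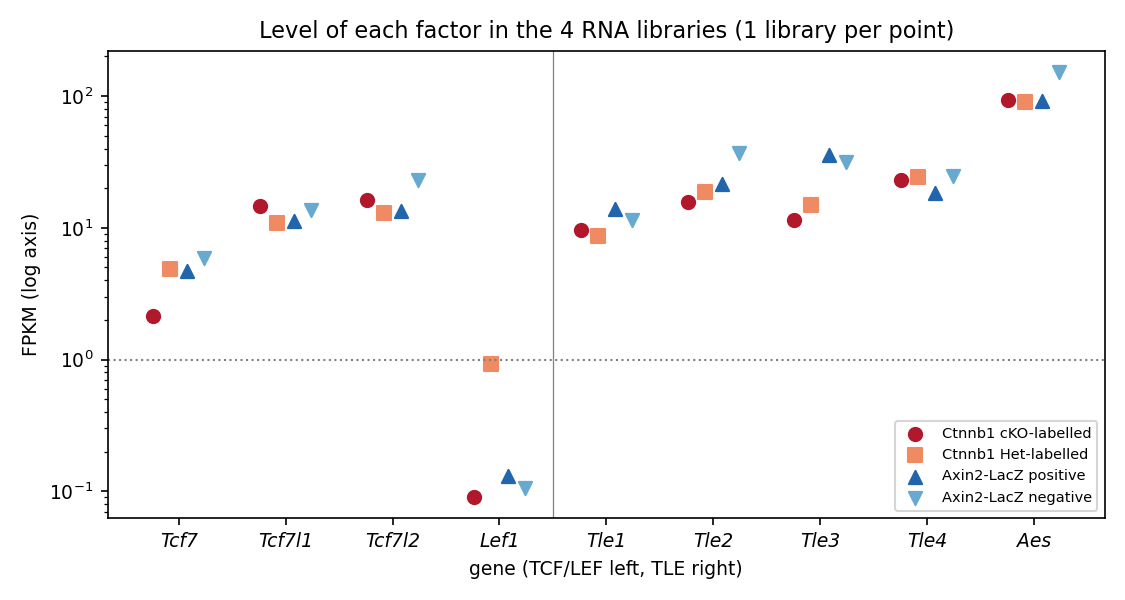
FPKM on a log axis (y) of the 9 genes (x) in the 4 libraries, 1 point per library and no error bars since each group has 1 library; the dotted line marks 1 FPKM. Aes sits near or above 90 FPKM, Lef1 under 1, and the cKO-labelled point of Tcf7 at 2.13 as deposited lies under the other 3. With the crossed values of its neighbour Cdkl3, the Het-labelled point would be the lowest.

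All members of the corepressor family were expressed in all libraries. Aes (ENSMUSG00000054452, mm9 chromosome 10, 81022238 to 81029107) was the highest of the 9 genes in each library, at 92.8 FPKM under the cKO label, 89.9 under the Het label, 91.9 in LacZ(+) and 153 in LacZ(-) cells. The first 3 of these values were within a few FPKM of each other and LacZ(-) was high, though the 2 pairs were normalized separately. By percentile among genes above 0, Aes lay at 94.9, 95.1, 95.1 and 96.5 in the same order. Tle2 (ENSMUSG00000034771, mm9 chromosome 10, 81035356 to 81053590), the neighbour of Aes on chromosome 10, stood at 15.8, 18.8, 21.5 and 37.0 FPKM, again highest in LacZ(-) cells. Tle4 (ENSMUSG00000024642, mm9 chromosome 19, 14522561 to 14672473) stood at 23.1, 24.4, 18.3 and 24.7 FPKM, with LacZ(+) the lowest.

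Tle3 (ENSMUSG00000032280, mm9 chromosome 9, 61220189 to 61266297) stood at 11.4 FPKM under the cKO label and 14.9 under the Het label, and at 35.9 in LacZ(+) and 31.9 in LacZ(-) cells. Tle1 (ENSMUSG00000008305, mm9 chromosome 4, 71778175 to 71861953), the lowest of the 5 TLE members in all 4 libraries, stood at 9.56, 8.68, 13.8 and 11.4 FPKM. Tle3 was the only one of the 8 members above the minimum whose 2 LacZ libraries both lay 2-fold or more above both libraries of the other pair; 8.94% of 13797 genes were that far apart in one direction or the other. The tables were normalized separately, and the pairs differ in genotype, age, sex, strain and sort, which cannot be told apart. Within the family, free of the scaling of a table, Tle3 held 7.48% and 9.53% of the summed TLE FPKM in the first pair and 19.8% and 12.4% in the LacZ pair.

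Within the families, the order was similar in all 4 libraries at its ends and varied in its middle. Aes came first, Tcf7 eighth and Lef1 last of 9 in each of them. Tle4 was the highest of the longer TLE genes in both libraries of the first pair, Tle3 in LacZ(+) cells and Tle2 in LacZ(-) cells. Summed FPKM of Tle1 to Tle4 exceeded summed TCF/LEF FPKM with ratios of 1.81 under the cKO label, 2.25 under the Het label, 3.04 in LacZ(+) and 2.46 in LacZ(-) cells. Aes alone stood at 1.55, 1.35, 1.03 and 1.45 times the sum of the 4 longer genes, so in LacZ(+) cells the short and the long members were close to equal. With 1 library per group there is no spread to say which neighbours in these orders differ.

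**Figure D2:**
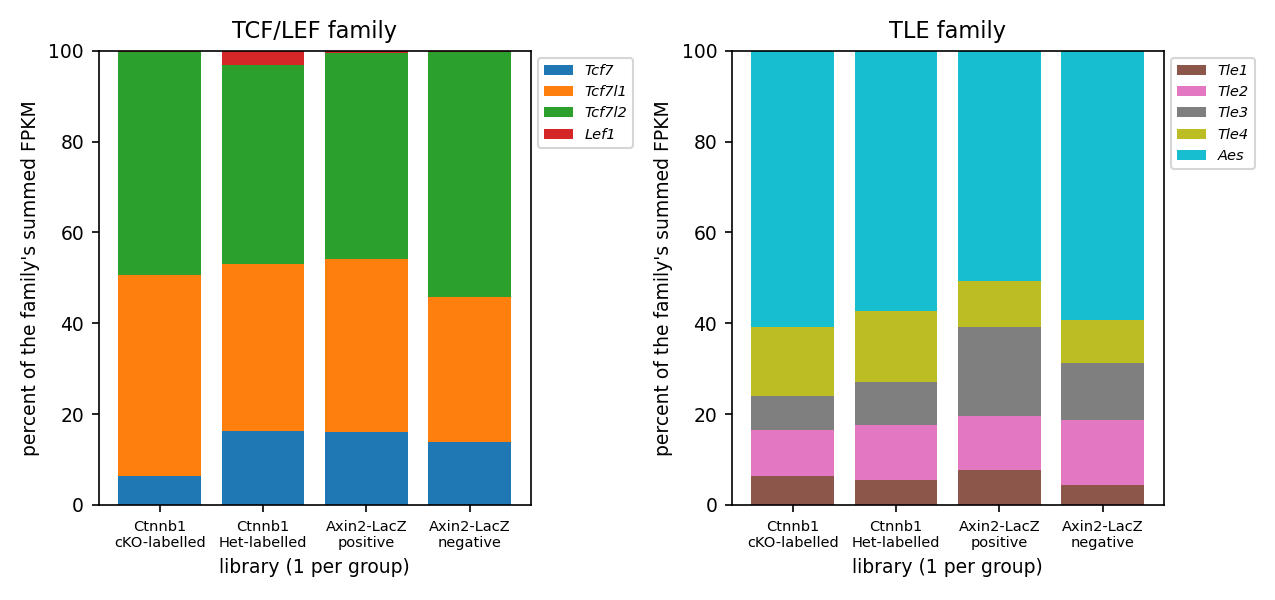
Percent of the family's summed FPKM (y, starting at 0) held by each gene in the 4 libraries (x, 1 per group), TCF/LEF on the left and TLE on the right. Tcf7 takes 6.44% of the TCF/LEF bar in the cKO-labelled library (13.6% with the crossed value of its neighbour Cdkl3) and 13.8% to 16.4% in the others (7.91% in the Het-labelled with its crossed value), and Aes takes 50.7% to 60.8% of the TLE bars.

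The first comparison sets cells with 2 floxed copies of Ctnnb1 against cells with 1. No member differed by 2-fold or more on the scale of log2(FPKM + 1), on which changes of low genes are understated: 0 of the 8 members at 1 FPKM or more in either library, against 4.09% of 13014 genes. Of these, 4 members were higher and 4 lower in the cKO-labelled library, with a median log2 difference of -0.01 against 0.06 for all genes tested. Among all genes tested, 39.1% were lower. The TCF/LEF genes split: Tcf7l1 (0.39) and Tcf7l2 (0.30) were higher, at percentiles 91.3 and 86.2 of the differences of all genes, and Tcf7 as deposited was lower (-0.91, percentile 2.61). With the value of Cdkl3 in its place in either library the Tcf7 difference would be 0.00, and in both it would turn to 0.90 (percentile 97.8). The TLE genes lay between Tle3 at -0.36 (percentile 8.16) and Tle1 at 0.13, with Tle2 at -0.24, Tle4 at -0.07 and Aes at 0.05. For the 9396 genes with at least 5 FPKM in each library, the central 95% ran from -0.50 to 0.61, which holds all 7 members other than Tcf7 and Lef1.

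Tcf7 as deposited was the member nearest the 2-fold line, and its place depends on the pseudocount as well as on the crossed values. The FPKM themselves differed by 2.28 times, and with a pseudocount of 0.1 the log2 difference was -1.15. The authors' deposited table gives -1.19. Relative to Tcf7l1 in the same library, a ratio that no scaling changes, Tcf7 stood at 0.146 in the cKO-labelled library and at 0.446, 0.422 and 0.432 in the Het-labelled, LacZ(+) and LacZ(-) libraries. With the values of Cdkl3 this ratio would be 0.332 under the cKO label and 0.196 under the Het label. Lef1 was under the minimum and got no place in the count. Its FPKM were 10.2 times lower in the cKO-labelled than in the Het-labelled library, and the authors' deposited table gives -3.36 on the log2 scale. Among 989 genes above 0 in both libraries whose higher value lay from 0.5 to 1 FPKM, a band chosen after the value of Lef1 was seen, 1.21% had a ratio as large in either direction, Lef1 included. Genes of that band at 0 in the other library, whose ratio has no limit, are left out, so this share can be too low. At 0.0910 FPKM under the cKO label, Lef1 can rest on few fragments.

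**Figure D3:**
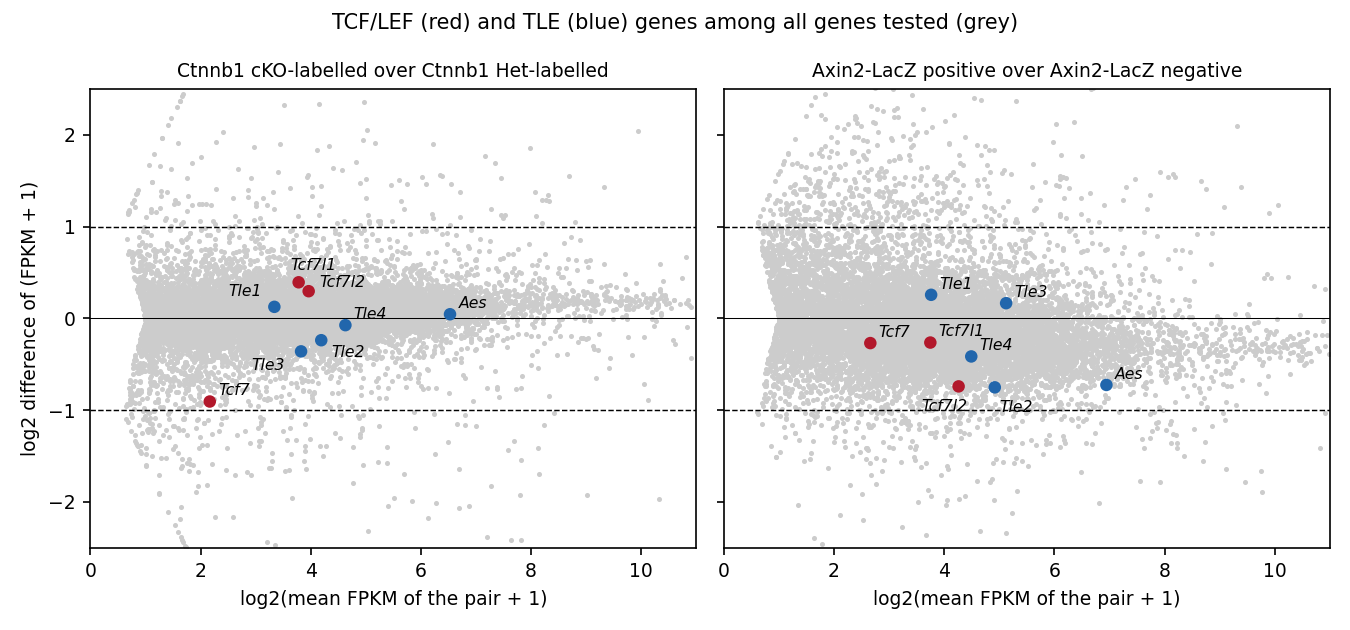
Log2 difference of FPKM + 1 (y) against the log2 of the mean FPKM of the pair + 1 (x) for all genes tested (grey) and the members (TCF/LEF red, TLE blue), with the first pair on the left and the LacZ pair on the right; dashed lines mark 2-fold, and genes beyond 2.5 are outside the axis. Tcf7 on the left at -0.91 as deposited (0.90 with the crossed values of Cdkl3) and Tle2, Tcf7l2 and Aes on the right between -0.75 and -0.72 lie nearest the dashed lines.

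Other markers moved beside Lef1, and beside Tcf7 as deposited, in the first pair. Of 8 bulge markers, 7 were higher in the cKO-labelled library and Nfatc1 (-0.52) was lower, none by 2-fold. Their median log2 difference was 0.22, against 0.06 for all genes tested, of which 39.1% were lower. All 3 hair germ and matrix markers of 6 that reached 1 FPKM were lower in the cKO-labelled library: Msx2 stood at 3.08 against 6.09 FPKM, Hoxc13 at 7.60 against 11.9 and Cdh3 at 25.6 against 30.9. The hair germ list summed to 36.7 against 49.3 FPKM, with Shh at 0 and 0.00891 and Foxn1 and Krt35 under 1. In bulk samples, fewer cells of a type and less RNA per cell cannot be told apart, and the part of these cells in the result was not tested. T cells and dermal papilla cells, which also express Tcf7 or Lef1, had low markers. Of 10 T cell and other leukocyte markers 2 reached 1 FPKM, the macrophage gene Cd68 and the antigen presentation gene Cd74, and these 2 carried most of the sum of 8.85 against 5.59 FPKM. Of the T cell receptor genes, Cd3d was at 0 in both libraries, Cd3e at 0.0594 under the cKO label and 0.133 under the Het label, and Cd3g at 0 and 0.203. The part of T cells was not tested. None of 6 dermal papilla markers reached 1 FPKM (sums 0.574 and 0.501), with Sox2 at 0 in both. Melanocyte markers summed to 45.4 and 47.4 FPKM, nearly all of it Mitf, and fibroblast markers to 23.1 and 14.7 FPKM. Of the fibroblast markers, Col1a1 was past 2-fold at 10.3 against 3.72 FPKM (1.26), and Col1a2 stood at 12.5 against 10.8. None of 4 endothelial markers reached 1 FPKM in any library.

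The second comparison sets bulge cells with Axin2 reporter activity against those without. Again 0 of 8 members differed by 2-fold or more, against 7.27% of 13283 genes. Of these, 6 members were lower and 2 higher in LacZ(+) cells, with a median of -0.34 against -0.13 for all genes tested; 63.4% of all genes were lower too. For genes with at least 5 FPKM in each library the median was -0.17, so differences relative to it are given second. Tle2 was at -0.75 (-0.58), Tcf7l2 at -0.74 (-0.57) and Aes at -0.72 (-0.56), at percentiles 5.28, 5.54 and 5.98 of the differences of all genes. These 3 have nearly the same difference, and their levels in LacZ(-) cells were the highest of any library, though the pairs were normalized separately. Their percentiles among genes above 0 were highest there too, at 84.6, 76.6 and 96.5, though for Aes the lowest of the 4 libraries was 94.9. Tle4 was at -0.41 (-0.24). Tcf7 at -0.27 (-0.10) and Tcf7l1 at -0.26 (-0.09) were close to that median. Tle1 at 0.26 (0.43) and Tle3 at 0.17 (0.34) were the 2 higher members. Lef1 at 0.130 and 0.106 FPKM was too low to be placed.

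Axin2, the gene of the sort, stood at 19.0 against 9.10 FPKM between these cells, a log2 difference of 0.98 on the same scale. On this scale Axin2 lay just under the 2-fold line. Relative to the median of -0.17, or by its FPKM alone, Axin2 was past that line. No member of either family passed it on any of these readings. Tcf7l2 held 45.4% of the TCF/LEF sum in LacZ(+) and 53.9% in LacZ(-) cells, while Tcf7 held 16.1% and 13.8%. Bulge markers differed in both directions beside Tcf7l2, Tle2 and Aes. Of 8 bulge markers, 4 were lower in LacZ(+) cells, 2 of them by 2-fold or more: Cd34 at 223 against 516 FPKM (-1.21) and Tbx1 at 122 against 303 (-1.31), with Lhx2 at -0.74 and Sox9 at -0.52. The other 4 were higher: Krt14 at 0.32, Nfatc1 at 0.09, Itga6 at 0.05 and Krt15, which is listed at 0 in LacZ(-) cells. Without Krt15, no bulge marker was 2-fold higher. Hair germ and matrix markers summed to 43.6 FPKM in LacZ(+) and 51.8 in LacZ(-) cells. Of the 6, 5 were at 1 FPKM or more in either library, and Shh was at 0 in both. The 3 higher were Krt35 (0.69), Foxn1 (0.35) and Cdh3 (0.14). The 2 lower were Msx2 at 2.26 against 7.69 FPKM (-1.41) and Hoxc13 at -0.58. Leukocyte markers summed to 6.57 and 4.05 FPKM with 2 of 10 at 1 FPKM or more, dermal papilla markers to 1.01 and 0.677 with none of 6 and Sox2 at 0 in both, fibroblast markers to 10.9 and 17.9 with 3 of 5, and melanocyte markers to 29.2 and 28.6 with 4 of 7. The fibroblast markers went both ways: Dcn stood at 2.16 against 0.423 FPKM (1.15), Col1a1 at 6.29 against 13.1 (-0.95) and Col1a2 at 2.38 against 4.34 (-0.66). The part of these cell types in the differences was not tested.

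Few of the proteins that work with TCF/LEF and TLE were 2-fold apart, as is so of all genes (4.09% in the first pair and 7.27% in the LacZ pair). Of 15 partners on the side of β-catenin, all were measured and none differed by 2-fold or more in either pair, with medians of 0.00 (8 higher, 7 lower) and -0.04 (6 higher, 9 lower). Next to Ctnnb1, the highest by the mean of the 4 libraries were Pygo2, a PHD finger protein that reads histone H3 in the β-catenin complex, at 24.1, 24.6, 25.6 and 26.5 FPKM in the order used above, and Med12, a Mediator subunit, at 17.5, 19.7, 17.2 and 26.0. Med12 has its place through LacZ(-) cells: in the first pair Cdc73 (21.9 and 20.5), Bcl9l (21.7 and 20.2) and Tbl1x (20.5 and 21.1) were above it. Of 12 corepressors and histone deacetylases, all were measured and none was 2-fold apart, with medians of -0.06 and 0.02. The highest were Ncor1, a nuclear receptor corepressor, at 66.7, 64.1, 72.6 and 66.8 FPKM, Ctbp1, a corepressor that binds some TCF proteins, at 52.8, 50.5, 50.7 and 69.7, and Hdac2, a class I histone deacetylase, at 45.1, 48.7, 59.1 and 64.8. The sixth TLE gene, Tle6, a divergent family member, stood at 1.84, 2.56, 4.03 and 3.94 FPKM.

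Of 12 kinases and ubiquitin ligases that act on TCF/LEF or TLE, none differed by 2-fold or more in the first pair (median 0.03) and 1 did in the LacZ pair (median -0.02), a share near that of all genes. The 1 gene was Nlk, a kinase that phosphorylates TCF/LEF proteins and weakens their DNA binding, at 3.86 FPKM in LacZ(+) and 8.80 in LacZ(-) cells, a log2 difference of -1.01 that is -0.84, inside the 2-fold line, relative to the median of -0.17. Of 16 other DNA-binding proteins that recruit TLE, 5 reached 1 FPKM in the first pair and 6 in the LacZ pair, with medians of -0.15 and -0.28. The homeobox gene Msx1 was the only one 2-fold apart, at 3.38 FPKM in LacZ(+) and 10.6 in LacZ(-) cells (-1.40, or -1.23 relative to the median of -0.17), and at 2.42 and 2.80 in the first pair.

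**Figure D4:**
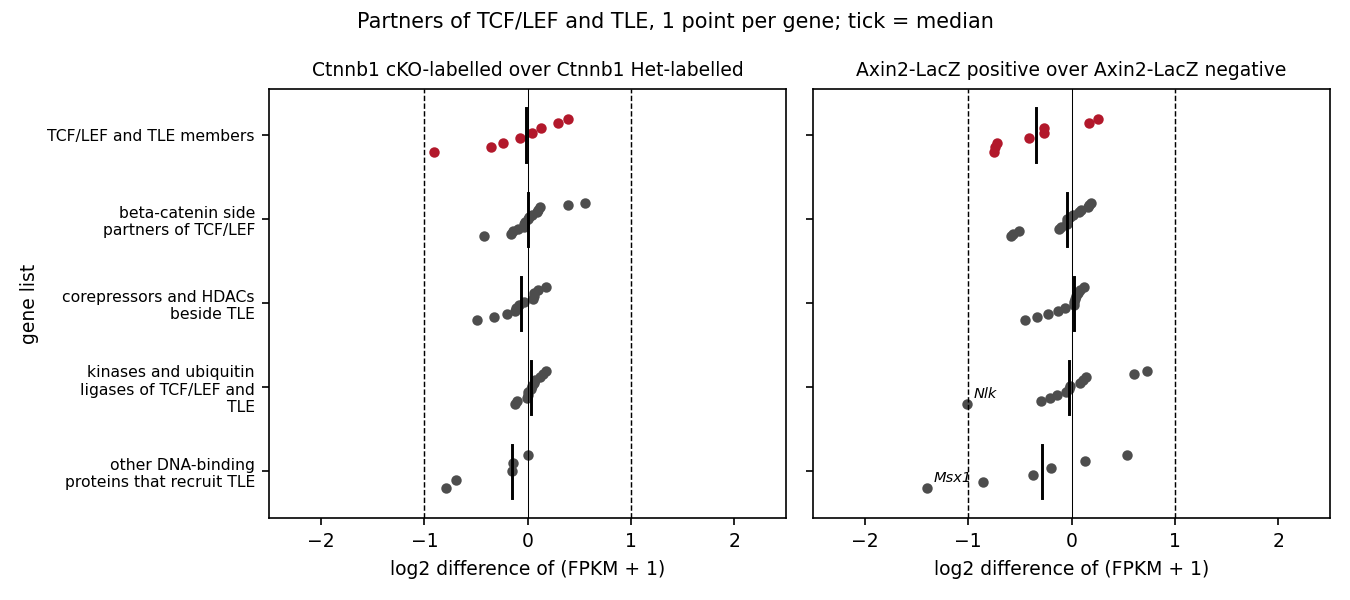
Log2 difference of FPKM + 1 (x) of each gene at 1 FPKM or more in either library of the pair (points) by gene list (y), the members in red and the partner lists in grey, with a vertical tick at the median; the first pair is on the left and the LacZ pair on the right, and dashed lines mark 2-fold. Only Nlk (-1.01) and Msx1 (-1.40), both on the right, pass a dashed line.

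Genes with a pattern like that of a member were sought for the 2 members farthest from the median of genes with at least 5 FPKM in each library over both differences, Tcf7 (distance 0.98) and Tle2 (0.66), among genes of at least 5 FPKM in all 4 libraries, by Euclidean distance over 2 values per gene. The place of Tcf7 rests on its first difference: the distance would be 0.12 with the value of Cdkl3 in 1 library and 0.84 with both, and the genes nearest to it are those of the deposited values. Nearest Tcf7 among 7954 genes were Crispld1 (0.06), Fam53b (0.12), Hes1 (0.14), Epdr1 (0.17) and Klf10 (0.20). Hes1, a Notch-responsive repressor that recruits TLE, stood at 9.62 FPKM under the cKO label and 17.3 under the Het label, and at 69.2 in LacZ(+) and 79.4 in LacZ(-) cells. Nearest Tle2 among 7953 genes were Ddx26b (0.03), Samd1, Ccl27b, Lap3 and Men1 (0.05). With 2 values per gene, many genes lie near the middle of this plane.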

How the data were processed

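The 4 RNA libraries were used, and the 4 chromatin samples are not analysed here. Per the labels' protocols, RNA of sorted cells was made into libraries with Illumina's TruSeq mRNA kit. The authors deposited FPKM, per the file headers, in 2 gene tables, and in the first also a log2 fold change of cKO over Het, printed for Tcf7 and Lef1. TopHat, TopHat2 2.0.4, Cufflinks 2.1.1, GRCm38 and mm9 are named, per the submitters' processing notes, with no roles. Strand and multi-read settings: not given in the sources used here. Coordinates are taken as mm9, since those on chromosome 7 reach 152509964, beyond the last gene end on GRCm38 (145324059). Each table has 32091 rows; 25 symbols turned into dates were restored and rows of a symbol summed.

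For each pair, the log2 ratio of FPKM + 1 was computed where the higher of the 2 values reached 1 FPKM (Python 3.11.15, pandas 2.3.3), and a difference of 1 or more either way counted as 2-fold. Counting was tested on simulated pairs. With 1 library per group no test exists, and the share of all genes stands in for it. The members and lists were chosen with earlier results of these data known. Named genes are the members, list genes past 2-fold or else the 3 highest, and the 5 nearest genes of 2 members; Tle6, marker genes and levels of Hes1 and Tcf3 and Tcf4 were added after values were seen. Alternatives were a minimum of 5 or none, pseudocounts of 0.1 and 5, upper-quartile scaling, centring on the median and the highest row per symbol; FPKM ratios without a pseudocount and only genes alone in their interval were added after seeing the data.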

Additional observations from a re-analysis of the deposited data

How the results depend on the processing

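No member passed 2-fold in the LacZ pair under any of the 9 alternatives. In the first pair 1 did, Tcf7, with a pseudocount of 0.1 (1 of 8 members, -1.15) and with FPKM ratios without a pseudocount (1 of 8, -1.19); a pseudocount of 1 compresses a gene at 2.13 and 4.85 FPKM, and with a pseudocount of 5 its difference was -0.47. The median of the members in the first pair was 0.045 with a minimum of 5 FPKM, which leaves out Tcf7, and Aes turned from 0.05 to -0.02 with centring. With the value of Cdkl3 in place of that of Tcf7, an alternative added after seeing the data, the share of Tcf7 in the TCF/LEF sum was 13.6% in the cKO-labelled library (6.44% as deposited) and 7.91% in the Het-labelled (16.4%). With a pseudocount of 1 added, the share of Lef1 in the TCF/LEF sum went to 2.95%, 5.74%, 3.38% and 2.37% in the cKO-labelled, Het-labelled, LacZ(+) and LacZ(-) libraries from 0.276%, 3.14%, 0.441% and 0.249%. Of all genes, 144 were higher and 159 lower by 2-fold with a pseudocount of 5 in the first pair, from 234 and 298, and 282 and 178 in the LacZ pair, from 620 and 346; lower genes in the LacZ pair were 528 with a pseudocount of 0.1 and 224 with centring, where 804 were higher. Among genes alone in their interval, 4 of which are members, the counts were 108 and 131, and 315 and 174. No replicate could be left out, and no paired analysis was possible because each group has 1 library. Depth is unknown, and Lef1, under 1 FPKM in all 4 libraries, got no place in the counts.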

Other observations

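Tcf7 and its neighbour Cdkl3, a kinase gene in the same interval on chromosome 11, had mirrored values in the first pair. Tcf7 stood at 2.13 FPKM under the cKO label and 4.85 under the Het label, and Cdkl3 at 4.85 and 2.13. The crossed values differed by 0.00700% and 0.177%. Of 4398 pairs of genes that share an interval and were at 1 FPKM or more in both libraries, 334 included a first gene that differed by 1.5 times or more between the libraries. This was the only 1 of them whose values crossed within 1%. In the LacZ pair Cdkl3 stood at 3.91 and 3.76 FPKM, with no such crossing. The cause was not tested.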
